A study of Mus musculus with 6 samples.

Results

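The genes described here encode 10 enzymes that break down nucleotides or adenosine outside the cell, or belong to the same enzyme families: Entpd1, Entpd2, Entpd3, Entpd5, Nt5e, Enpp1, Enpp2, Enpp3, Alpl and Ada. They were 10 of the 39179 genes in the count table, and the set was chosen on the difference between the sorted subsets: Entpd3 was selected for its values in these libraries, and the other 9 because they act on the same substrates or share its enzyme families. Their values are therefore given as a description: no p-value is printed for them, and calls among them are only counted beside the same count over all genes. All 10 passed the filter on low counts, which kept 15576 genes.

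RNA sequencing was used to ask how cortical thymic epithelial cells (cTEC) differ when sorted with or without a reporter of the chemokine gene Cxcl12. The cells came from untreated Cxcl12::DsRed reporter mice, a knock-in line on a C57BL/6 background used at 10 weeks of age, in which the red protein DsRed marks cells with an active Cxcl12 locus. Both subsets carried the reporter allele and the same sorting phenotype (CD45-, EpCAM1+, UEA1- and Ly51+), and differed only in the sort for DsRed: 3 libraries came from Cxcl12DsRed- cTEC and 3 from Cxcl12DsRed+ cTEC. The labels tie the libraries into pairs, 1 per subset, from experiments called A, B and C, which the methods describe as biological replicates without saying whether animals were pooled.

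Extracellular ATP is a danger and signalling molecule that is cleared in steps by enzymes on the cell surface. The membrane NTPDases remove phosphates from ATP and ADP to leave AMP, the NPP enzymes ENPP1 and ENPP3 cut ATP directly to AMP and pyrophosphate, and CD73 or alkaline phosphatase turns AMP into adenosine. Adenosine acts on its own receptors until it is taken up or is deaminated to inosine by adenosine deaminase, an enzyme whose loss causes severe combined immunodeficiency through purines that poison developing lymphocytes.

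The Cxcl12DsRed- libraries held 34574900 to 44969195 counts in genes and the Cxcl12DsRed+ libraries 38875590 to 51042679. DsRed transcript lay between 17.6 and 27.8 CPM (counts-per-million of the library size after scaling by the trimmed mean of M values) in the DsRed- sort and between 860 and 2059 CPM in the DsRed+ sort, so the libraries matched their labels. Cxcl12 itself lay between 144 and 287 CPM in the DsRed- sort, and so was not absent from it, and between 893 and 1473 CPM in the DsRed+ sort. The summed level of 12 cTEC markers was 2753 to 4777 CPM in Cxcl12DsRed- cTEC and 9451 to 15448 CPM in Cxcl12DsRed+ cTEC. Of the 12, 10 were lower in every Cxcl12DsRed- library and 1, Epcam, was higher in every one. Krt8 overlapped between the subsets and made up most of the Cxcl12DsRed- sums, at 4065, 2948 and 1787 CPM in A, B and C. The sums therefore understate the difference in most of the other markers. In bulk samples such as these, fewer cells of a type and less RNA per cell cannot be told apart. Markers of other cell types were present in both subsets and are given beside the genes they moved with.

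The regions directly upstream of 4 of the genes are shown because their values were fully separated between the subsets: Entpd3 and Entpd2, each with every Cxcl12DsRed- library above every Cxcl12DsRed+ library, and Ada and Alpl, which were ordered the other way. Each is the 250 bases before the RefSeq transcription start on assembly GRCm38.p6, 5′ to 3′ along the strand of the gene, at chr9:120539568-120539817 (plus strand) for Entpd3, chr2:25395624-25395873 (plus strand) for Entpd2, chr2:163750240-163750489 (minus strand) for Ada, and chr4:137796385-137796634 and chr4:137766476-137766725 (minus strand) for the upstream and the downstream start of Alpl. Capitals mark matches to GACGC, which holds the core of the FOXN1 recognition sequence, to TATAAA, the TATA box, and to GGGCGG, the GC box, read on both strands.
Entpd3: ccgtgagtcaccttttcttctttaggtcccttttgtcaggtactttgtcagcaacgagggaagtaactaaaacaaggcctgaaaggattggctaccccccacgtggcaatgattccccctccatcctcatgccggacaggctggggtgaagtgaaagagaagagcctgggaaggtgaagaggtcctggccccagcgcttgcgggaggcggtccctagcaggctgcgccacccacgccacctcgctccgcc
Entpd2: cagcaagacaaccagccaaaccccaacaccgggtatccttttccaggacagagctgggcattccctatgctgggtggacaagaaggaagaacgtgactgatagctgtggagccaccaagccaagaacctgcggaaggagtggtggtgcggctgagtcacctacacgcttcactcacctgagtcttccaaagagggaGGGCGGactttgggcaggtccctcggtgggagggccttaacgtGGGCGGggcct
Ada: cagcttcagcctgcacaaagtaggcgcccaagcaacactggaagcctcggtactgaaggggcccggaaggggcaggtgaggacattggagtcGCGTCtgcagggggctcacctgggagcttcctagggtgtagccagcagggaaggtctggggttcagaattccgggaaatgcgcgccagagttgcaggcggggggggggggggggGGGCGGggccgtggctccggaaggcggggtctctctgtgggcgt
Alpl, upstream start: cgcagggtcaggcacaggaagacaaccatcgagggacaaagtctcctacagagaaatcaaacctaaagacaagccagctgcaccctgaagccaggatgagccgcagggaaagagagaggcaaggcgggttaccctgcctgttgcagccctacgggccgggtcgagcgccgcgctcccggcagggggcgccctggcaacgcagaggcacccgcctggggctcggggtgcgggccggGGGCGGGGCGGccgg
Alpl, downstream start: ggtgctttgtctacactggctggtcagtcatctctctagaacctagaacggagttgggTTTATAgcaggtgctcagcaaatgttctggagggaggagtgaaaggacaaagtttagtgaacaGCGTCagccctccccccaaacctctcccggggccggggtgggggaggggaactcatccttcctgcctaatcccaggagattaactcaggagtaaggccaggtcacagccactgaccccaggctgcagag
None of the 3 motifs occurred in the Entpd3 window. The Entpd2 window held 2 GC boxes, and the Ada window 1 GACGC and 1 GC box, the GACGC lying on the opposite strand as GCGTC. The upstream window of Alpl held 2 GC boxes, and the downstream window 1 GACGC and 1 TATAAA. The promoter table used here matched 9 of the 10 genes, with 11 start sites, and had no match for Enpp2. Among these 11 windows, 3 held GACGC, 2 held TATAAA and 5 held GGGCGG, against 22.6%, 12.4% and 32.7% of all 32851 mouse promoter windows of the same length. A match is a description of the letters and not evidence of binding. The GC content was 58.8% upstream of Entpd3, 59.2% upstream of Entpd2, 67.2% upstream of Ada and 68.4% and 56.0% at the starts of Alpl, above the median of 52.4% over all windows.

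Of the 10 genes, 1 passed the fit over all genes, Entpd3, towards higher values in Cxcl12DsRed- cTEC (edgeR's quasi-likelihood test, Benjamini-Hochberg adjusted over all genes tested). The same test called 0.449% of all genes higher and 0.173% lower, and because Entpd3 was selected on this difference nothing is read from this call or its count. The 6 libraries separated without overlap in 4 genes. Entpd2 and Entpd3 were higher in every Cxcl12DsRed- library, while Alpl and Ada were lower in every one. Of all genes tested, 9.73% were separated upwards in this way and 9.32% downwards. The median log2 fold change of the 10 genes (Cxcl12DsRed- over Cxcl12DsRed+) was 0.19, with 5 above 0, beside a median of 0.02 over all genes tested.

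**Figure D1:**
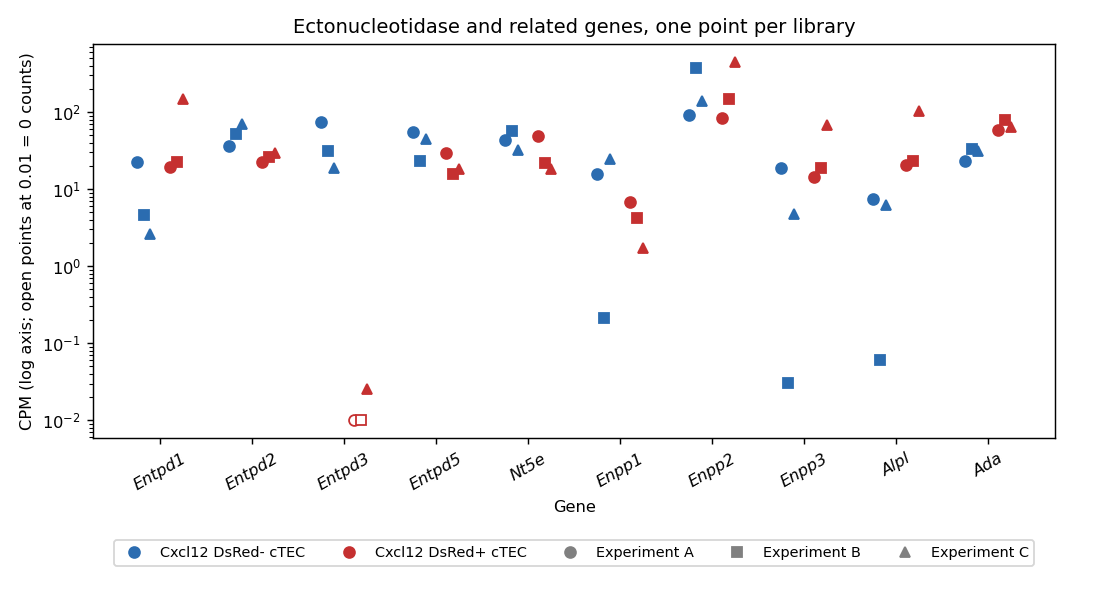
The level of each of the 10 genes in CPM (log axis) is plotted with 1 point per library, Cxcl12DsRed- cTEC in blue and Cxcl12DsRed+ cTEC in red, with a symbol for each experiment. Entpd3 has 2 open points for libraries with 0 counts and 1 point at 0.0258 CPM in Cxcl12DsRed+ cTEC, and the blue points of Alpl and Ada all lie below the red ones.

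The surface NTPDases are described first, beginning with Entpd3, which was selected for its difference between the subsets. Entpd3, which encodes NTPDase3 (chromosome 9, 120539818 to 120568327, plus strand, GRCm38), stood at 73.8, 31.1 and 19.1 CPM in Cxcl12DsRed- experiments A, B and C. In the matching Cxcl12DsRed+ libraries it stood at 0, 0 and 0.0258 CPM, the last being 1 count. The gene was thus detected in every Cxcl12DsRed- library and was at the edge of detection in the Cxcl12DsRed+ libraries, where a count of 0 allowed up to 0.0567 CPM in experiment A and 0.0626 CPM in experiment B (3 counts per library, counting error only). In total 4992 counts faced 1, a ratio of CPM of 5968 with a 95% counting interval of 1071 to 235754. That interval covers the counting error of the pooled counts only and leaves out the spread between libraries. Among the Cxcl12DsRed- libraries themselves Entpd3 also spread widely, the level in experiments B and C being 42.1% and 25.8% of that in experiment A.

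The libraries with most Entpd3 also held most of the transcripts that mark tuft cells, chemosensory epithelial cells also found in the thymic medulla. The summed level of 12 tuft markers was 2939, 849 and 535 CPM in Cxcl12DsRed- A, B and C and 38.1 to 43.7 CPM in Cxcl12DsRed+ cTEC. All 12 were higher in every Cxcl12DsRed- library, and Il25 had 0 counts in all Cxcl12DsRed+ libraries. The sum of 11 enterocyte and microfold markers was likewise highest in experiment A and lowest in C, at 2662, 1459 and 752 CPM against 15.6 to 94.2 CPM, and most of it was Gp2, a microfold cell receptor, at 1942, 1022 and 669 CPM. Of these 11 markers 3 were higher in every Cxcl12DsRed- library, and Hnf4a, a defining transcription factor of enterocytes, was at most 2.48 CPM in any library. Myeloid markers (10 genes) summed to 146 to 880 CPM in Cxcl12DsRed- cTEC and 38.1 to 95.6 CPM in Cxcl12DsRed+ cTEC, with Cxcl12DsRed- B highest, and 2 of the 10 were separated upwards. Most of the Cxcl12DsRed- sums was a single gene, Lyz2, at 462, 803 and 128 CPM in A, B and C. B cell markers (6 genes) summed to 37.0, 33.3 and 6.91 CPM against 0.718 to 5.05 CPM, with 1 of the 6 separated upwards, while Pax5, which defines B cells, had 0 counts in every library. The part of these cells in the level of Entpd3 was not tested.

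**Figure D2:**
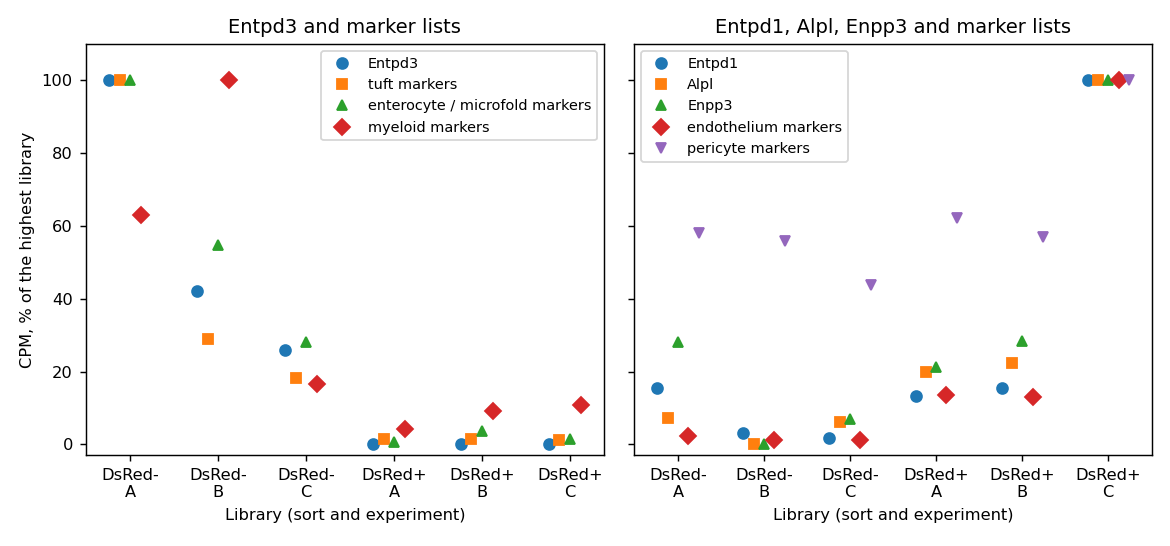
The left panel sets Entpd3 beside the summed levels of tuft, enterocyte and microfold, and myeloid markers, and the right panel sets Entpd1, Alpl and Enpp3 beside endothelial and pericyte markers, each as percent of its highest library. Entpd3 and the tuft sum are both highest in Cxcl12DsRed- A, lowest of their subset in C, and near 0 in Cxcl12DsRed+ cTEC, while the 3 enzymes on the right peak in Cxcl12DsRed+ C with the endothelial sum.

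The 5 tested genes nearest to Entpd3 over the 6 libraries, by the root mean square difference of centred log2 CPM, were Krt4, Gng13, 1810046K07Rik, Gm4952 and Asb11, with differences of 0.30 to 0.53. Krt4, a keratin of stratified and other epithelia, was closest: it stood at 66.2, 17.9 and 15.0 CPM in Cxcl12DsRed- cTEC and had 0 counts in all Cxcl12DsRed+ libraries. Gng13, a G protein subunit of taste transduction that is also in the tuft list, stood at 181, 60.8 and 35.6 CPM against at most 0.170 CPM. These likenesses are descriptions over 6 libraries that fall into 2 separate subsets.

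Entpd2, which encodes an NTPDase that prefers ATP to ADP (chromosome 2, 25395874 to 25401321, plus strand), stood at 36.1, 52.8 and 70.4 CPM in Cxcl12DsRed- A, B and C. In Cxcl12DsRed+ cTEC it stood at 22.3, 26.1 and 29.3 CPM. The subsets did not overlap, and the log2 fold change was 1.04 ± 0.31 (SE, n = 3 libraries per subset). Its highest library was Cxcl12DsRed- C, the lowest of that subset for Entpd3. The sum of 10 fibroblast markers was highest in the same library, at 3908, 3751 and 5314 CPM in Cxcl12DsRed- A, B and C against 1151 to 1881 CPM in Cxcl12DsRed+ cTEC, with 2 of the 10 separated upwards. Most of each sum was Dcn, which was highest in Cxcl12DsRed- A instead. Dcn stood at 3469, 3092 and 3118 CPM in Cxcl12DsRed- A, B and C and at 633 to 1512 CPM in Cxcl12DsRed+ cTEC. The part of fibroblast RNA in Entpd2 was not tested. Entpd2 shares 612 of its 2128 exon bases with Npdc1 on the same strand, and Npdc1 was also higher in Cxcl12DsRed- cTEC, at 115, 179 and 125 CPM against 76.5, 66.8 and 99.2 CPM. The methods name the intersection-nonempty mode of HTSeq, in which a read wholly inside bases shared by 2 genes counts for neither. If the unnamed annotation release held this overlap, the level of Entpd2 for its length was understated.

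Entpd1 encodes CD39, the NTPDase of endothelium, regulatory T cells and macrophages (chromosome 19, 40612366 to 40741602, plus strand). It stood at 22.8, 4.66 and 2.63 CPM in Cxcl12DsRed- A, B and C and at 19.6, 22.7 and 147 CPM in Cxcl12DsRed+ cTEC. The subsets overlapped, because Cxcl12DsRed- A lay just above Cxcl12DsRed+ A and B, and the log2 fold change of -2.65 ± 1.12 (SE) moved to -1.12 without Cxcl12DsRed+ C and to -4.15 without Cxcl12DsRed- A. In Cxcl12DsRed+ C, Entpd1 was 6.96 times the mean of the other 2 Cxcl12DsRed+ libraries, a ratio reached by 2.67% of all genes tested, against a median of 0.966. All 13 endothelial markers were likewise highest in that library, with a summed level of 6216 CPM against 837 and 813 CPM in Cxcl12DsRed+ A and B and 69.6 to 136 CPM in Cxcl12DsRed- cTEC, and 11 of the 13 were lower in every Cxcl12DsRed- library. The part of endothelial RNA in Entpd1 was not tested.

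On a scale that allows levels of different genes to be compared (RPKM, CPM per kilobase of summed exon), Entpd1, Entpd2 and Entpd3 together reached 40.7, 33.9 and 38.6 RPKM in Cxcl12DsRed- A, B and C. In Cxcl12DsRed+ cTEC the sum was 13.98, 16.3 and 40.2 RPKM. Experiment C therefore gave nearly equal sums in both subsets while A and B did not. In Cxcl12DsRed- A, B and C, Entpd3 made up 48.3%, 24.4% and 13.1% of the sum and Entpd2 41.6%, 73.1% and 85.6%. In Cxcl12DsRed+ cTEC, Entpd3 made up at most 0.0171%, a difference for which the gene was selected. Entpd2 made up 74.9%, 75.1% and 34.3% there, overlapping the other subset. Entpd1 made up 10.1%, 2.46% and 1.22% in Cxcl12DsRed- A, B and C and 25.1%, 24.9% and 65.7% in Cxcl12DsRed+ cTEC. Shares of Entpd1 and Entpd2 in Cxcl12DsRed- cTEC are also lowered by the part that Entpd3 takes. Entpd2 thus gave the largest share in 4 of the 6 libraries, and its share may be understated through the bases it shares with Npdc1.

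**Figure D3:**
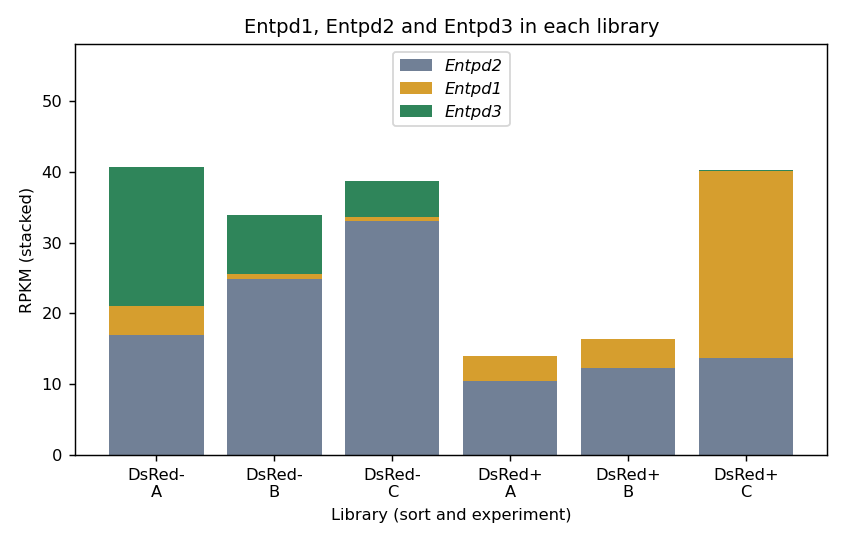
Bars stack the levels of Entpd1, Entpd2 and Entpd3 in RPKM (from 0) for each of the 6 libraries. Entpd3 takes a visible block of the Cxcl12DsRed- bars and at most a hairline of the others, and the tall Cxcl12DsRed+ C bar of 40.2 RPKM is mostly Entpd1.

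Entpd5 encodes an NTPDase of the endoplasmic reticulum that hydrolyses UDP released in protein glycosylation and can also be secreted (chromosome 12, 84373857 to 84409029, minus strand). It stood at 55.0, 23.3 and 45.4 CPM in Cxcl12DsRed- A, B and C and at 29.5, 16.0 and 18.4 CPM in Cxcl12DsRed+ cTEC. Within each experiment the Cxcl12DsRed- library was higher, in 3 of 3, but the subsets overlapped because Cxcl12DsRed- B lay below Cxcl12DsRed+ A, and the log2 fold change was 0.95 ± 0.42 (SE).

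The NPP enzymes Enpp1 and Enpp3, neighbours on chromosome 10 (24637914 to 24712159 and 24772406 to 24842823, both minus strand), leaned in opposite directions with wide spread. Enpp1, a source of pyrophosphate that restrains mineral deposition, stood at 15.7, 0.213 and 24.7 CPM in Cxcl12DsRed- A, B and C and at 6.92, 4.21 and 1.73 CPM in Cxcl12DsRed+ cTEC. Enpp3, known as CD203c on basophils and mast cells, stood at 18.9, 0.0304 and 4.75 CPM and at 14.4, 19.1 and 67.3 CPM. Cxcl12DsRed- B was the lowest library for both genes, with 7 counts of Enpp1 and 1 of Enpp3. Their log2 fold changes were 1.66 ± 1.35 and -2.09 ± 1.51 (SE), and the subsets overlapped for both. That of Enpp1 moved to 0.89 without Cxcl12DsRed- C, to 2.23 without Cxcl12DsRed- B and to 0.76 with the experiment as a replicate block. That of Enpp3 moved to -3.81 without Cxcl12DsRed- A, to -1.13 without Cxcl12DsRed+ C and to -3.70 with the block.

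Enpp2 encodes autotaxin, a secreted member of the NPP family that works chiefly as a lysophospholipase and makes lysophosphatidic acid (chromosome 15, 54838901 to 54952892, minus strand). It stood at 91.2, 370.3 and 139 CPM in Cxcl12DsRed- A, B and C and at 84.8, 146 and 450.2 CPM in Cxcl12DsRed+ cTEC. Each subset had 1 library well above its other 2, so the ranges overlapped almost fully, and the log2 fold change of -0.18 ± 0.73 (SE) turned to 0.75 without Cxcl12DsRed+ C and to 0.12 or 0.02 without Cxcl12DsRed- A or C. In exons it shares 345 of 5779 bases with the opposite-strand transcript Gm26684, which did not exceed 0.188 CPM in any library.

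CD73 and alkaline phosphatase, which both yield adenosine from AMP, had different profiles. Nt5e, the gene of CD73 (chromosome 9, 88327197 to 88372092, plus strand), stood at 43.1, 56.5 and 32.2 CPM in Cxcl12DsRed- A, B and C and at 49.3, 21.7 and 18.6 CPM in Cxcl12DsRed+ cTEC. The subsets overlapped through Cxcl12DsRed+ A, and the log2 fold change was 0.56 ± 0.44 (SE), between 0.27 and 1.08 when single libraries were left out, the highest being without that library. Alpl, the gene of the tissue-nonspecific alkaline phosphatase (chromosome 4, 137741733 to 137796384, minus strand), stood at 7.39, 0.0608 and 6.32 CPM and at 20.7, 23.3 and 104 CPM. Its subsets did not overlap. The log2 fold change was -3.42 ± 1.38 (SE). It was -2.29 without Cxcl12DsRed+ C, -3.94 without Cxcl12DsRed- A and -4.16 with the experiment as a replicate block.

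Alpl and Enpp3 shared with Entpd1 a peak in Cxcl12DsRed+ C, where they were 4.72 and 4.01 times the mean of Cxcl12DsRed+ A and B. Enpp2 was 3.90 times that mean. Ratios at least as high were seen in 4.80%, 5.96% and 6.16% of all genes tested. In the same comparison the ratio was 7.53 for the summed endothelial markers, 1.68 for 10 pericyte markers and 15.8 for 6 red cell genes, whereas Entpd2, Ada, Entpd5, Nt5e and Enpp1 had ratios between 0.310 and 1.21. The pericyte ratio was held down by Acta2 and Tagln, at 377, 276 and 222 CPM and at 566, 451 and 216 CPM in Cxcl12DsRed+ A, B and C. The other 8 of the 10 pericyte markers were highest in Cxcl12DsRed+ C, among them Rgs5 at 56.5, 123 and 592 CPM. The part of the vessel-associated transcripts in Alpl, Enpp3 and Enpp2 was not tested.

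Ada, the gene of adenosine deaminase (chromosome 2, 163726584 to 163750239, minus strand), had the smallest SE of the log2 fold change among the 10 genes. It stood at 23.3, 33.4 and 31.4 CPM in Cxcl12DsRed- A, B and C and at 58.9, 79.6 and 64.2 CPM in Cxcl12DsRed+ cTEC. The lowest Cxcl12DsRed+ library was above the highest Cxcl12DsRed- library, and the log2 fold change was -1.20 ± 0.26 (SE), between -1.34 and -1.07 when single libraries were left out. Developing thymocytes are a known source of Ada, and the summed level of 12 thymocyte markers was 55.0 to 104 CPM in Cxcl12DsRed- cTEC and 42.5 to 349 CPM in Cxcl12DsRed+ cTEC, with no marker separated between the subsets. Cxcl12DsRed+ C, with the lowest thymocyte sum of all, held 64.2 CPM of Ada, and the part of thymocyte RNA in Ada was not tested.

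Ranked by mean RPKM, Enpp2 led in both subsets, at 34.6 ± 25.8 RPKM in Cxcl12DsRed- cTEC and 39.3 ± 33.9 RPKM in Cxcl12DsRed+ cTEC (SD, n = 3). In Cxcl12DsRed- cTEC it was followed by Entpd2 (24.9 ± 8.07), Ada (14.7 ± 2.68), Entpd3 (11.0 ± 7.66), Entpd5 (6.83 ± 2.69) and Nt5e (5.11 ± 1.41), with Entpd1, Enpp1, Enpp3 and Alpl between 1.14 and 1.80 RPKM. Only Entpd2 and Ada were neighbours in this order whose libraries did not overlap. In Cxcl12DsRed+ cTEC, Enpp2 was followed by Ada (33.8 ± 5.38), Alpl (12.2 ± 11.7), Entpd2 (12.2 ± 1.66), Entpd1 (11.3 ± 13.05), Enpp3 (5.58 ± 4.86), Entpd5 (3.53 ± 1.20), Nt5e (3.47 ± 1.96), Enpp1 (0.418 ± 0.253) and Entpd3 (0.00229). There the neighbours that did not overlap were Ada and Alpl, Nt5e and Enpp1, and Enpp1 and Entpd3. With the longest transcript as the length, Nt5e and Entpd5 exchanged places in both subsets and Entpd1 and Entpd2 in Cxcl12DsRed+ cTEC.

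The wider purine pathway around these enzymes was read from the same fit in 7 lists of 88 genes, of which 64 were tested. None passed edgeR's quasi-likelihood test after adjustment over all genes tested. At an unadjusted p below 0.05 there were 7 higher and 10 lower in Cxcl12DsRed- cTEC, or 26.6% of those tested beside 11.8% of all genes, and the likelihood ratio test and DESeq2 called 11 and 15. The median log2 fold change over the 64 genes was -0.14. Adjusted p-values below come from the quasi-likelihood test.

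The list closest to the enzymes above, 17 related ectoenzymes with 9 tested, had 0 higher and 2 lower genes at an unadjusted p below 0.05. Cd38, a surface enzyme that consumes NAD, stood at 0.369, 0.396 and 2.16 CPM in Cxcl12DsRed- A, B and C and at 28.4, 22.9 and 159 CPM in Cxcl12DsRed+ cTEC, with the same peak in Cxcl12DsRed+ C as Entpd1. Its log2 fold change was -6.16 ± 1.20 (SE, adjusted p = 0.0858), and it passed by the likelihood ratio test, by DESeq2 and with the experiment as a replicate block (the last with adjusted p = 0.0204, range over all settings 3.0e-08 to 0.276). Enpp5, a member of the NPP family, stood at 219 to 283 CPM and at 359 to 465 CPM, a log2 fold change of -0.63 ± 0.19 (adjusted p = 0.238). Entpd4 and its near-identical copy Entpd4b had 0 counts in every library. Reads that map to more than 1 place were counted for no gene, so these 0 counts do not show that the transcripts were absent.

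Among 14 genes of ATP release, 10 were tested, with 4 higher and 2 lower at an unadjusted p below 0.05. Gja1, which encodes a widely expressed connexin, stood at 67.6 to 105 CPM in Cxcl12DsRed- cTEC and 210 to 427 CPM in Cxcl12DsRed+ cTEC, a log2 fold change of -1.68 ± 0.33 (adjusted p = 0.0896). It did not pass the adjusted threshold in that test but was called by the likelihood ratio test and by DESeq2.

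Receptors for the substrates and products were also read. Of 14 P2 receptors for nucleotides 10 were tested, with 1 higher and 0 lower at an unadjusted p below 0.05. P2rx4, an ATP-gated channel, stood at 110, 138 and 51.6 CPM in Cxcl12DsRed- A, B and C and at 28.5, 36.0 and 27.9 CPM in Cxcl12DsRed+ cTEC. The log2 fold change was 1.70 ± 0.38 (adjusted p = 0.107). P2rx4 passed by the likelihood ratio test, by DESeq2 and without Cxcl12DsRed- C (the last with adjusted p = 0.0417, range over all settings 0.00183 to 0.310). P2ry2, a receptor for ATP and UTP, stood at 6.67, 0 and 4.45 CPM and at 12.5, 15.4 and 49.2 CPM (adjusted p = 0.578). Of 4 adenosine receptors Adora2a and Adora2b were tested, and both overlapped between the subsets. Adora2a stood at 8.38 to 20.1 CPM and at 10.1 to 30.7 CPM (adjusted p = 0.690), while Adora2b had 0 counts in 1 library of each subset. Adora1, removed by the filter on low counts, stood at 9.93, 9.46 and 0.0492 CPM and at 0.0378, 0 and 0 CPM. Its subsets did not overlap, but Cxcl12DsRed- C and Cxcl12DsRed+ A each held only 2 counts. DESeq2, run without that filter, called Adora1 higher in Cxcl12DsRed- cTEC.

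Of 7 nucleoside transporters, which carry adenosine and inosine into cells, 4 were tested, and 2 were lower and 0 higher at an unadjusted p below 0.05. Slc29a1, the equilibrative transporter ENT1, stood at 228, 223 and 313 CPM in Cxcl12DsRed- A, B and C and at 730, 592 and 592 CPM in Cxcl12DsRed+ cTEC. Like Ada, it was lower in every Cxcl12DsRed- library, with a log2 fold change of -1.33 ± 0.21 (SE, adjusted p = 0.0555), and it passed in both other tools, with no filter on low counts and without Cxcl12DsRed- C (the last 2 with adjusted p = 0.0459 and 0.0476, range over all settings 1.91e-06 to 0.21). Slc28a2, a concentrative purine nucleoside transporter, stood at 0.162, 0 and 0.0246 CPM and at 5.84, 9.51 and 72.8 CPM, highest in the same Cxcl12DsRed+ C library (adjusted p = 0.0825). It was called by the likelihood ratio test and by DESeq2.

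**Figure D4:**
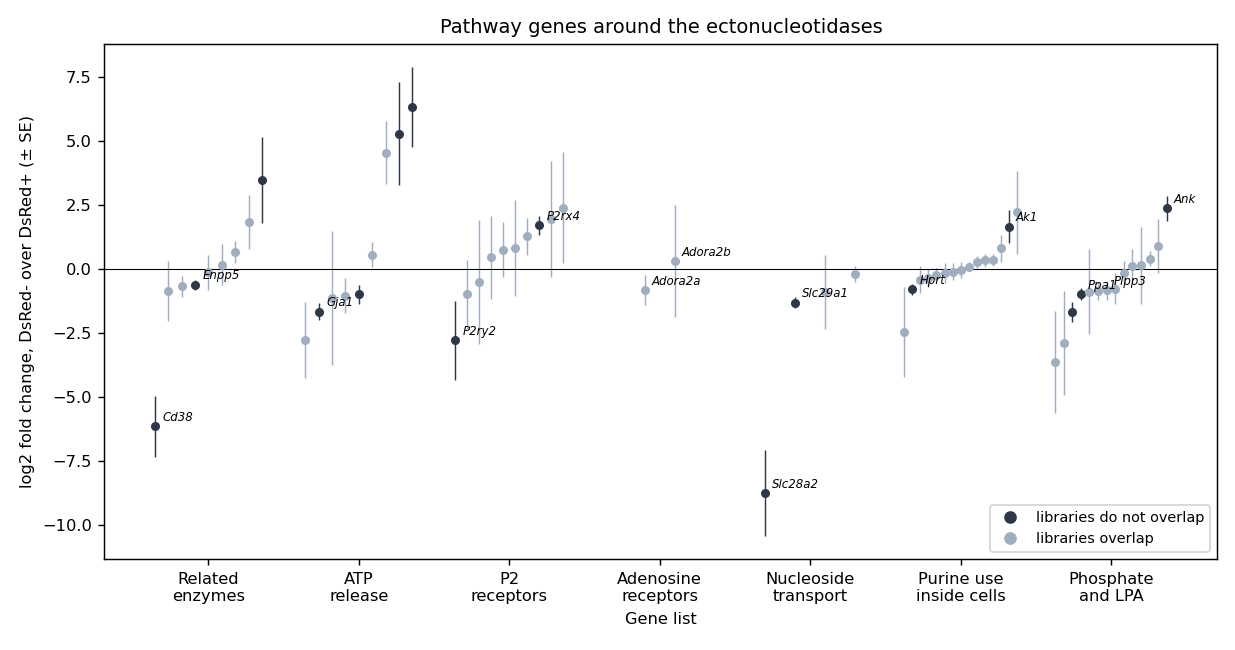
Log2 fold changes (Cxcl12DsRed- over Cxcl12DsRed+, points, with SE as bars, and a line at 0) are plotted for tested genes in the 7 pathway lists, dark where the libraries of the subsets did not overlap. Cd38 at -6.16 and Slc28a2 at -8.75 lie lowest, and the 4 nucleoside transporters have a median of -1.12.

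Within cells, 15 of 18 listed genes of purine use were tested, with 1 higher and 1 lower at an unadjusted p below 0.05. Hprt, which salvages the hypoxanthine made from inosine, stood at 91.8 to 136 CPM in Cxcl12DsRed- cTEC and 167 to 214 CPM in Cxcl12DsRed+ cTEC (log2 fold change -0.79 ± 0.22, adjusted p = 0.180). It was called by DESeq2 alone. Ak1, an adenylate kinase, stood at 10.2 to 23.6 CPM and 2.65 to 6.92 CPM (1.65 ± 0.63, adjusted p = 0.364). The last list, 14 genes of phosphate, pyrophosphate and lysophosphatidic acid handling, had 1 higher and 3 lower at an unadjusted p below 0.05. Ank, which supplies extracellular pyrophosphate, stood at 25.2 to 58.3 CPM and at 4.76 to 11.1 CPM (2.36 ± 0.48, adjusted p = 0.0923), and Ppa1, a cytosolic pyrophosphatase, at 72.9 to 80.5 CPM and at 116 to 179 CPM (-0.98 ± 0.22, adjusted p = 0.107). Both Ank and Ppa1 were called by the likelihood ratio test and by DESeq2. Plpp3, a surface phosphatase that degrades lysophosphatidic acid, had the highest RPKM of that list and overlapped between the subsets, at 338 to 581 CPM and 512 to 1317 CPM (adjusted p = 0.476).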

How the data were processed

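Poly(A) RNA of 6 libraries, 3 per sorted subset, was amplified with the SMARTer Ultra Low Input kit and sequenced. Per the labels and methods the authors used Trimmomatic 0.36 for trimming, STAR 2.7.3a for alignment (mm10) and HTSeq for gene counts, and deposited these counts without normalization. The annotation release and strand setting were not given in the sources used here, so reads of overlapping genes cannot be assigned by strand. Entries that name no gene entered neither library sizes nor tests: no feature 5.87 to 9.35%, ambiguous 1.21 to 1.38% and multi-mapping 5.61 to 9.07% of the counts in genes.

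Of 39179 gene identifiers, 37693 matched GENCODE M21 (GRCm38), which gave symbols, positions and exon lengths. Counts were filtered with filterByExpr (minimum count 10), scaled by TMM and fitted with edgeR 4.0.16 in R 4.3.3 (quasi-likelihood, threshold 0.05 after Benjamini-Hochberg adjustment over 15576 genes). The SE of a log2 fold change was the fold change divided by the square root of F. No p-value is printed for the 10 enzymes, and calls among them, counted here and under the alternatives, serve as no evidence, because they, and the pathway and marker lists, were chosen with earlier results of these data known. The text names all 10 enzymes and, of each pathway list, the 2 genes of smallest p and the gene of highest RPKM, except 1 gene that is not reported here; other genes in it share exons, carry markers or were nearest to Entpd3. Other lists of cell type markers summed, in Cxcl12DsRed- and Cxcl12DsRed+ cTEC, to 7142 to 11191 and 3169 to 13353 CPM (mTEC), 791 to 1052 and 1031 to 1811 CPM (pericyte) and 11.1 to 1932 and 137 to 3364 CPM (red cell). Although these sums overlapped, 3 mTEC markers (Cd80, Cldn4 and Spib) were higher in every Cxcl12DsRed- library. In the pericyte list 2 markers were lower in every one.

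The labels place 1 library of each subset in each experiment, which pairs the samples. Deviations from the subset means correlated at 0.0106, 0.0778 and 0.0716 within experiments A, B and C and at -0.0948 to 0.00374 across experiments. The scripts were tested on simulated data. Alternatives were the edgeR likelihood ratio test, DESeq2 1.42.0, other size factors, no filter, the experiment as a block, leaving out each library, and the longest transcript as the length.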

Additional observations from a re-analysis of the deposited data

How the results depend on the processing

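Among the 10 enzymes the 120 log2 fold changes refitted under alternatives stayed within 1 SD of the value reported in 118 cases, the exceptions being Entpd3 at 11.21 without Cxcl12DsRed- A and 13.79 without Cxcl12DsRed+ C. That SD was the spread of log2 CPM between libraries of a subset, from 0.253 for Ada to 3.02 for Enpp3. Wide moves thus counted as within it, such as Entpd1 from -2.65 to -1.12 without Cxcl12DsRed+ C. The count of 118 therefore says little of how stable the fold changes were. The sign changed only for Enpp2. Of the 10, 1 was called (Entpd3), against 2 by the likelihood ratio test (with Ada), 3 by DESeq2 (with Ada and Entpd2) and 0 to 1 when single libraries were left out, counts that say nothing of the stability of genes chosen on these libraries. Of the 64 pathway genes tested 0 were called by the quasi-likelihood test, against 11 by the likelihood ratio test, 15 by DESeq2, 1 with no filter on low counts, 1 with the experiment as a replicate block and 0 to 2 without single libraries. Over all genes the 97 calls became 880 by the likelihood ratio test, 1422 by DESeq2 (6300 of 23188 genes had no adjusted p), 168 without the filter and 0 to 139 without single libraries. Without Cxcl12DsRed- A or B, or Cxcl12DsRed+ A or B, edgeR's quasi-likelihood test called 0 genes, with 1460 to 1850 at an unadjusted p below 0.05; without Cxcl12DsRed+ C it called 1, and only without Cxcl12DsRed- C did it call more than with all libraries. The cause of these differences was not tested. With the replicate block 73 genes were called, 40 of them among the 97, and besides Cd38 the block changed no call of a gene named from the lists. Of 20 levels per length, 14 stayed within 1 SD of RPKM between the libraries of the subset with the longest transcript as the length. With 3 libraries per subset, Entpd3 in Cxcl12DsRed+ cTEC is limited by depth to the floors given for it.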
